A study of Mus musculus with 69 samples.

Results

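Heat shock chaperones are proteins that bind unfolded or newly made proteins and help them to fold, to be moved or to be degraded. The transcripts of 10 chaperone genes were followed in the lungs of mice that had received titanium dioxide nanoparticles: Hspa1a, Hspa1b, Hspa8, Hsph1, Dnajb1, Bag3, Hsp90aa1, Hspb1, Hspd1 and Hspe1. They were 10 of the 17628 genes measured. A probe was taken as belonging to a gene when its transcript identifier mapped to that symbol, and 15 probes did so, all of which passed the filter on dim probes. The set was chosen from these same measurements, in every particle, dose and day group, so its differences from vehicle are given as a description and carry no p-value.

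Each of the 69 arrays held the lung RNA of 1 female C57BL/6 mouse, labelled with Cy5, against a commercial universal mouse reference RNA, labelled with Cy3. The mice were 5 to 7 weeks old on arrival, were acclimatised for 1 to 3 weeks and received a single intratracheal instillation. The groups had 18, 54 or 162 µg of the titanium dioxide nanoparticles NRCWE-001 or NRCWE-002, or vehicle. The sample labels name NRCWE-001 as unmodified and NRCWE-002 as modified. The study lists the first as having no charge and the second as positively charged. Vehicle was given as H2O in the sample labels and as water with 2% serum in the study design. Lungs were taken 1 or 28 days later. There were 5 mice in each group except for vehicle on day 28, which had 4, and all the mice shared strain and sex, with no genetic modification named in the labels. Values are log2 ratios of lung over reference RNA, and a difference of 1 on this scale is a doubling. In whole lung, more RNA per cell and more cells of a type cannot be told apart.

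In unstressed cells the transcription factor HSF1 is held inactive, largely by the chaperones themselves. When unfolded proteins draw the chaperones away, HSF1 forms trimers, binds heat shock elements, which are alternating GAA and TTC blocks in promoters, and drives the inducible HSP70 genes Hspa1a and Hspa1b most strongly. HSP70 works with J proteins such as Dnajb1, which deliver the client and trigger ATP hydrolysis, and with nucleotide exchange factors such as Hsph1 (HSP110) and Bag3, which release it. Hspa8 is the constitutive HSP70, Hsp90aa1 the inducible cytosolic HSP90, Hspb1 a small heat shock protein that holds unfolded proteins, and Hspd1 with Hspe1 the chaperonin and its lid in mitochondria. In lung these genes are known for their response to heat, oxidants and metals.

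The promoters show what the members share beyond their expression. RefSeq windows of 300 bases, from 250 before to 50 after the annotated start (GRCm38.p6), were given for 8 of the 10 members (not Hspa8 and Hsp90aa1). They were searched for pairs of blocks (GAANNTTC or TTCNNGAA) and for triples, in which 3 alternating blocks follow each other with any 2 bases between them, so that a triple holds 2 overlapping pairs. A pair reads the same on both strands, and each triple reads as the other on the opposite strand, so both strands were covered. A pair was found in at least 1 window of 7 of the 8 members (not Dnajb1), and of 17.0% of all 27025 genes with a window (15.1% of the 32851 windows). A triple was found in Hsph1, Hspd1 and Hspe1, and in 0.662% of these genes (0.603% of the windows). The 4 windows below are those of the 2 genes with the largest differences, of the small heat shock protein gene and of the chaperonin gene with the longest run of blocks, each written from 5′ to 3′ on the gene's strand with the matches in capitals.

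Hspa1a (chr17:34972107-34972406, minus strand): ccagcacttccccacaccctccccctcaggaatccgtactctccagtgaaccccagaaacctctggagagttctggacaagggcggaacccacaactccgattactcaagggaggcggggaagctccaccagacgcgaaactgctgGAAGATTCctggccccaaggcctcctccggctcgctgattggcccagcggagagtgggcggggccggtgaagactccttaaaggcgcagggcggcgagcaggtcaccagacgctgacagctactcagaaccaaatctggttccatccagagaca
Hsph1 (chr5:149636266-149636565, minus strand): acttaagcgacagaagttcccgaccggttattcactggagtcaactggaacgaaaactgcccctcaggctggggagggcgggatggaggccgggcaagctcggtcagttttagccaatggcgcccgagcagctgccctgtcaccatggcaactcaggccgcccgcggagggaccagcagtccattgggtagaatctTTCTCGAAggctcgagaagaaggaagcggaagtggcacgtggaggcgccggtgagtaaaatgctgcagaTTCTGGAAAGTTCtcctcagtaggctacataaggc
Hspb1 (chr5:135887669-135887968, plus strand): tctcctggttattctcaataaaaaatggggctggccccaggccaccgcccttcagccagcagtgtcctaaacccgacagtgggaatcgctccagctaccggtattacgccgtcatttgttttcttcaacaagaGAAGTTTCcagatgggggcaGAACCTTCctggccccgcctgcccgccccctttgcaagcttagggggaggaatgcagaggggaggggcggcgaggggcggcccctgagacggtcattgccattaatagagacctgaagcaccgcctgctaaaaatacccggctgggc
Hspe1 (chr1:55087898-55088197, plus strand): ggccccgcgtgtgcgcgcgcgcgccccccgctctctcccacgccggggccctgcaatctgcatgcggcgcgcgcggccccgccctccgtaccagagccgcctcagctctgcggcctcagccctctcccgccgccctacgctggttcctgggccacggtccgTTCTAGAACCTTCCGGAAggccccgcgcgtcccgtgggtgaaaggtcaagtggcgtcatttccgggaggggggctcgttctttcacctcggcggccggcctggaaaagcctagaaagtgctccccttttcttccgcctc

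In Hspa1a the pair GAAGATTC began at position -104 from the start. The window of Hspa1b (chr17:34959189-34959488, minus strand) held the same pair at the same position, and the 2 windows were identical at 296 of 300 bases. In the window shown, Hsph1 had 1 pair at position -54 and the triple TTCTGGAAAGTTC at position 15, downstream of the start. In its other window (chr5:149636287-149636586), the same stretches lay at positions -33 and 36. Hspb1 had separate pairs at positions -117 and -97, and Bag3 had 1 at position 42. Hspd1 and Hspe1 lie head to head, so their windows covered 285 common bases, and the run of blocks, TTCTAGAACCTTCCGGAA as read along Hspe1, was 1 shared stretch counted for both genes. Of the other cytosolic and mitochondrial chaperone and co-chaperone genes taken for comparison, 14 of 49 with a window held a pair and 2 held a triple. Among chaperones of the endoplasmic reticulum, which answer to other transcription factors, 0 of 13 held a pair. These are matches of letters in a fixed window and not measured binding sites.

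The clearest pattern lay on day 28, in the lungs given the lowest dose of NRCWE-001. Hspa1a was highest there. The 5 mice given 18 µg had log2 ratios of 3.11, 2.96, 3.07, 2.70 and 2.80, and the 4 vehicle mice of day 28 had 0.80, 0.050, 1.20 and 0.75. Every exposed lung thus lay well above every vehicle lung, and the difference was 2.23 ± 0.21 (SE), a ratio of 4.68. With 54 µg the values were 1.41, 2.30, 1.63, 1.76 and 2.01, again all above vehicle, with a difference of 1.12 ± 0.21. With 162 µg they were 1.11, 1.13, 1.74, 1.60 and 1.95, of which 3 of 5 were above all vehicle values, with a difference of 0.80 ± 0.21. The means were thus lower at the higher doses, and the 18 µg and 162 µg groups did not overlap. Both Hspa1a probes gave the same size at 18 µg, with differences of 2.21 and 2.24.

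For NRCWE-002 on day 28 the order of the doses was another. Hspa1a was at 1.14, 2.02, 1.36, 1.27 and 1.60 with 18 µg, a difference from vehicle of 0.78 ± 0.21, with 4 of 5 lungs above all vehicle lungs. With 54 µg the values of 1.16, 1.68, 0.95, 0.87 and 1.30 were 0.49 ± 0.21 above vehicle on average and overlapped it, and this difference was 0.27 without vehicle replicate 2, the lowest vehicle lung. With 162 µg they were 1.48, 2.46, 1.21, 2.16 and 1.89, a difference of 1.14 ± 0.21, with all 5 lungs above vehicle. Of the 14 group means of Hspa1a, the 18 µg NRCWE-001 group of day 28 came first at 2.93 and stood clear of the next one, at 1.84 (NRCWE-002, 162 µg, day 28). Every later neighbour in that order overlapped the one before it, down to vehicle of day 28 at 0.70.

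**Figure D1:**
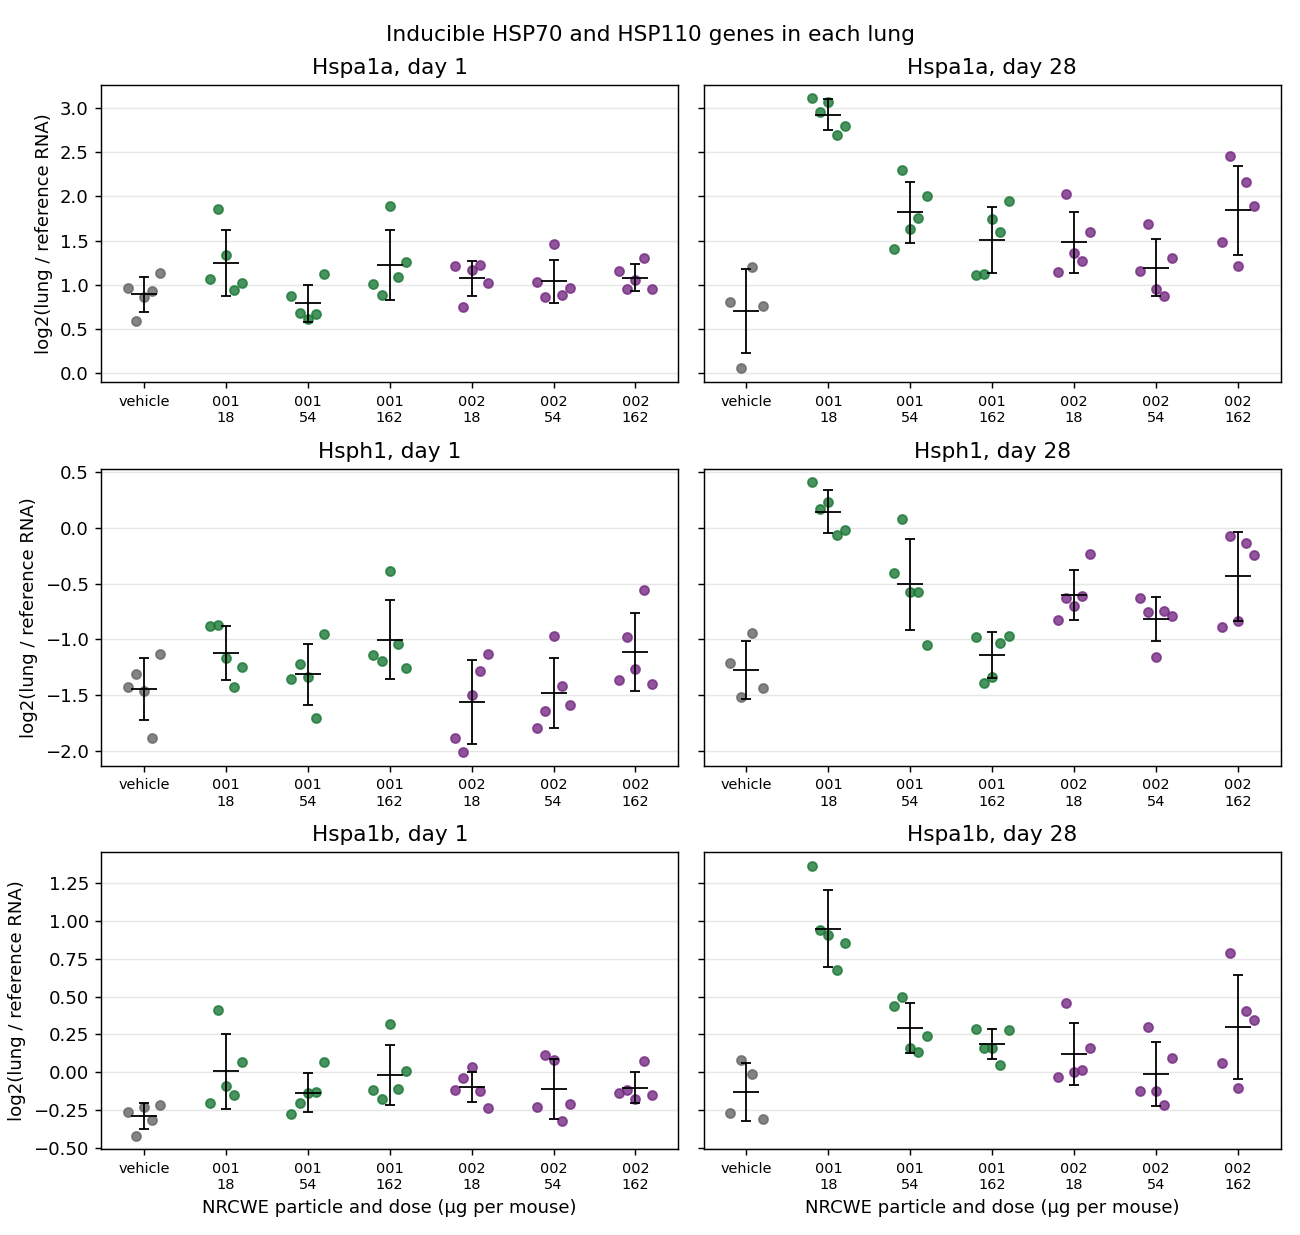
Log2 ratio of lung over reference RNA (vertical axes) of Hspa1a, Hsph1 and Hspa1b in each mouse, by particle (001, NRCWE-001, green; 002, NRCWE-002, purple; vehicle, grey) and dose in µg, on day 1 (left) and day 28 (right). Points are single mice and bars the mean ± SD; the 18 µg NRCWE-001 lungs of day 28 lie above the vehicle lungs in all 3 genes, from 2.70 to 3.11 for Hspa1a.

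Hspa1b, the neighbouring gene for a nearly identical HSP70, followed Hspa1a at a smaller size. Its log2 ratios were 1.37, 0.94, 0.91, 0.68 and 0.85 with 18 µg of NRCWE-001 on day 28, against -0.27, 0.081, -0.0090 and -0.31 with vehicle, a difference of 1.08 ± 0.13 without overlap. With 54 µg the difference was 0.42 ± 0.13 and all 5 lungs were still above vehicle, and with 162 µg it was 0.31 ± 0.13 with 4 of 5 above. With NRCWE-002 the differences were 0.25, 0.12 and 0.43 at 18, 54 and 162 µg, the first of which was 0.16 and the second 0.038 without replicate 2 of its group. The size rests on which Hspa1b probe is read. One probe went from a median of 0.0038 in vehicle to 1.65 with 18 µg, and the other from -0.22 to 0.22, so that the differences of the means were 1.71 and 0.44. The first probe followed Hspa1a closely over the 69 arrays (r = 0.93, and 0.88 after removal of group and slide means) and the second less so (r = 0.59 and 0.30), a description over arrays that share groups and slides. Whether the first probe also binds Hspa1a transcripts was not tested. The second was well above background on 51 of the 69 arrays.

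Hsph1, the HSP110 exchange factor of HSP70, showed the second largest difference. Its 5 values with 18 µg of NRCWE-001 on day 28 were 0.41, 0.17, 0.23, -0.067 and -0.020, against -1.21, -1.52, -0.94 and -1.43 with vehicle, a difference of 1.42 ± 0.20 or a ratio of 2.68. No exposed lung overlapped vehicle. With 54 µg the difference was 0.77 ± 0.20 (4 of 5 above all vehicle lungs), and with 162 µg it was 0.13 ± 0.20 (0 of 5 above; 0.050 without vehicle replicate 2 and 0.24 without vehicle replicate 3). With NRCWE-002 it was 0.67 at 18 µg, 0.46 at 54 µg and 0.84 at 162 µg, each ± 0.20, and all 5 lungs of the 18 and 162 µg groups were above vehicle. Hsph1 at 162 µg was the single case in which the NRCWE-002 lungs of day 28 lay wholly above the NRCWE-001 lungs of the same dose, by 0.71 ± 0.19, which was so for 0.272% of all genes.

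Dnajb1, the J protein, differed from vehicle by 0.57 ± 0.14 with 18 µg of NRCWE-001 on day 28, with values of -0.13, -0.36, -0.31, -0.56 and -0.66 against -1.05, -1.12, -0.62 and -1.10. The highest vehicle lung overlapped 1 exposed lung. The differences at 54 and 162 µg were 0.36 and 0.30, and with NRCWE-002 they were 0.11, -0.14 and 0.20 in order of dose, and 0.023, -0.25 and 0.054 without replicate 2 of each group. Bag3, which links HSP70 to autophagy, was 0.31 ± 0.11 above vehicle with 18 µg of NRCWE-001 (4 of 5 lungs above all vehicle lungs) and between -0.042 and 0.12 in the other groups of day 28.

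The remaining members differed less. With 18 µg of NRCWE-001 on day 28 Hspa8 was 0.51 ± 0.29 above vehicle, Hsp90aa1 0.37 ± 0.17, Hspe1 0.35 ± 0.14, Hspb1 0.34 ± 0.22 and Hspd1 0.27 ± 0.15. Without exposed replicate 1 the difference was 0.30 for Hspa8 and 0.13 for Hspd1, and without vehicle replicate 2 it was 0.23 for Hsp90aa1 and 0.42 for Hspd1. Hspe1 was the only one of these 5 with all 5 lungs above vehicle. All 10 members thus had a positive difference in this group, with a median of 0.44 beside 0.00080 over all genes. All 10 were also positive with 54 µg of NRCWE-001 (median 0.17) and with 18 µg (median 0.20) and 162 µg (median 0.16) of NRCWE-002, whereas 5 and 6 of the 10 were positive in the other groups of day 28. Of all genes, 47.0% to 50.8% were positive in the groups of day 28 and 49.7% to 56.7% in those of day 1. On day 1, 9 of the 10 members were positive with 18 and 162 µg of NRCWE-001 (median 0.26 in each) and with 162 µg of NRCWE-002 (median 0.19). With 54 µg of NRCWE-001 there were 8 (median 0.11), and with 18 and 54 µg of NRCWE-002 7 and 6 (medians 0.071 and 0.041). The day 28 comparisons share their 4 vehicle lungs, and those of day 1 their 5.

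**Figure D2:**
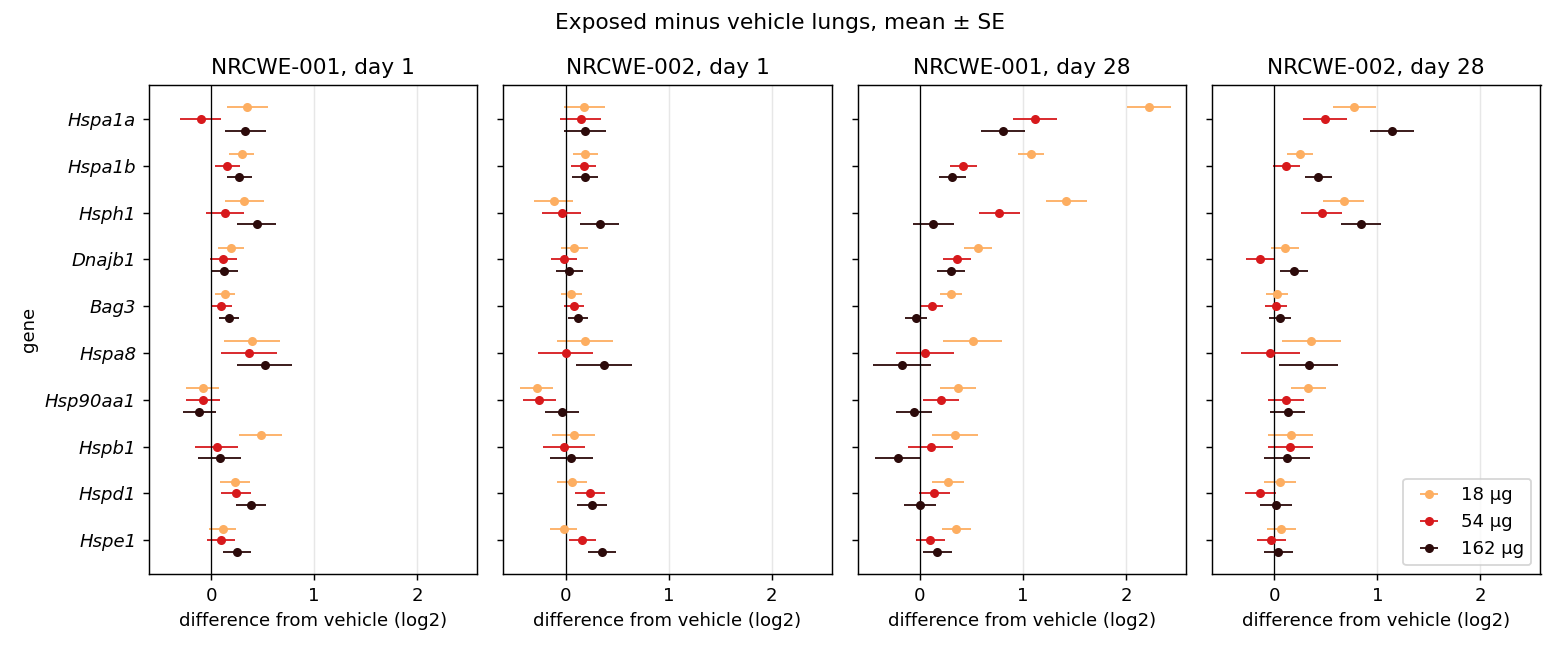
Mean difference from the vehicle group of the same day (horizontal axes, log2 scale) for the 10 genes (vertical axis) by particle and day, at 18 (orange), 54 (red) and 162 µg (black), with bars of ± 1 SE from the fit over all genes. The differences of Hspa1a on day 28 run from 0.49 to 2.23 and stay between -0.10 and 0.35 on day 1.

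A limma fit over all genes, with Benjamini-Hochberg adjustment and a threshold of 0.05, was used to set these sizes against all genes. An F-test of dose for NRCWE-001 on day 28 called 0.686% of all genes and 3 members, Hspa1a, Hspa1b and Hsph1. The same 3 were called at 18 µg against vehicle, where 0.193% of all genes were called. At 54 µg of NRCWE-001 and at 162 µg of NRCWE-002 on day 28, Hspa1a was the only gene called, so that the share was 0.00567% in each. No member was called at 162 µg of NRCWE-001 (0.0511% of all genes), at 18 or 54 µg of NRCWE-002 (0%) or by the F-test for NRCWE-002 on day 28 (0%, with 3 members at an unadjusted p below 0.05). The rule had used these contrasts, so nothing is read from the counts. In terms of overlap, 4 members had all 5 lungs above all vehicle lungs at 18 µg of NRCWE-001, where 1.16% of all genes did, 2 at 54 µg (0.573%), 1 at 18 µg of NRCWE-002 (0.528%) and 2 at 162 µg (0.511%). The single call at 54 µg of NRCWE-001 was lost with signals normalised anew from the scans, with scan day as a block, in a fit of the day 28 arrays alone, and without any one of vehicle replicates 1, 2 and 4 or exposed replicates 2 to 5. That at 162 µg of NRCWE-002 was lost with slide as a block, in the day 28 fit, and without vehicle replicate 2 or 4 or exposed replicate 2, 4 or 5, while 2 and 3 members were called without exposed replicates 1 and 3. The shares of all genes in the fits that left out an array are not given, so nothing is read from those counts.

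Between the particles on day 28, the mean over the 3 doses was lower with NRCWE-002 for Hspa1a (-0.58 ± 0.12), Hspa1b (-0.34 ± 0.070) and Dnajb1 (-0.36 ± 0.074), and these 3 members were called where 6.73% of all genes were. With slide as a fixed block none of the 3 was called, with differences of -0.64 ± 0.15, -0.23 ± 0.077 and -0.35 ± 0.095, and 0.0511% of all genes were. On day 1 no member was called between the particles (0.108% of all genes). The rule had used the values of all these groups, so nothing is read from the calls between particles. For Hspa1a the gap was widest at 18 µg, where the NRCWE-002 mean minus that of NRCWE-001 was -1.45 ± 0.20 and the lungs did not overlap, and it was -0.63 at 54 µg and 0.34 at 162 µg, each ± 0.20. For Dnajb1 it was -0.46 at 18 µg, -0.50 at 54 µg and -0.11 at 162 µg, each ± 0.13. Hspa1b (-0.83 ± 0.12) and Hsph1 (-0.75 ± 0.19) did not overlap at 18 µg either, as was so for 0.76% of all genes. Within NRCWE-001 on day 28, Hspa1a was 1.42, Hsph1 1.29, Hspa1b 0.76, Hspb1 0.56 and Bag3 0.35 higher at 18 µg than at 162 µg, and the 2 doses did not overlap for these 5 members nor, in that direction, for 1.02% of all genes.

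On day 1 the largest member difference from vehicle was 0.52 ± 0.27, for Hspa8 with 162 µg of NRCWE-001. Vehicle lungs of day 1 had Hspa1a at 0.97, 0.59, 0.86, 0.92 and 1.13, and the 3 NRCWE-001 groups had differences of 0.35, -0.10 and 0.33 in order of dose, each ± 0.20. The first was 0.20 without replicate 2 of its group and the third 0.17 without replicate 3. With NRCWE-002 they were 0.18, 0.15 and 0.19, and 0.11, 0.071 and 0.11 without vehicle replicate 2. No member was called in any group of day 1, by the F-test (0.879% of all genes were called with NRCWE-001, 0.771% with NRCWE-002) or at a single dose. The shares of all genes called at 54 and 162 µg were 0% and 0.624% with NRCWE-001, 0.113% and 0.59% with NRCWE-002, and 0% at 18 µg of either. At an unadjusted p below 0.05, where the share of all genes is not given, the F-test gave 0 members for NRCWE-001 and 1 for NRCWE-002. Blocks changed this at 162 µg. With slide as a fixed block Hspa8 was called for NRCWE-001 (0.45 ± 0.13, beside 4.11% of all genes). With scan day as a block, Hspa8 and Hspd1 were called for NRCWE-001 (4.07% of all genes), Hspe1 for NRCWE-002 (3.99%), and Hspa8 by the F-test for NRCWE-001 (6.64%). Nothing is read from these calls, since the rule had used the values. Several members had all 5 exposed lungs above all vehicle lungs. For Hspa1b this was so with 18 and 162 µg of NRCWE-001 and with 162 µg of NRCWE-002, by 0.30, 0.27 and 0.19, as for 0.806%, 1.7% and 3% of all genes, and the first of these was 0.19 without replicate 2. Hspd1 did so with 54 and 162 µg of NRCWE-001 and with 54 µg of NRCWE-002, by 0.24, 0.39 and 0.24, where the share was 2.31% and 1.8% of all genes at 54 µg of the uncharged and the charged particle, and Hspa8 with 162 µg of NRCWE-001. With 18 µg of NRCWE-001 the difference of Hspa1a was 1.88 ± 0.29 larger on day 28 than on day 1. The vehicle groups themselves differed between the days by -0.19 ± 0.21 for Hspa1a and by 0.59 ± 0.29 for Hspa8, and 0% of all genes were called between them.

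One lung of day 1 stood apart for Hspb1. In the 18 µg NRCWE-001 group its ratio was 3.09 in replicate 2 and 0.75 to 1.13 in the other 4 mice. That sample also had the highest mean of the 5 skeletal muscle markers of all 69 arrays, 5.16 against a median of -0.80. The Hspb1 difference of the group was 0.48 with it and 0.055 without it. The same lung was the highest of its group for 9 of the 10 members (not Hsp90aa1), at 1.86 for Hspa1a, 0.41 for Hspa1b, 0.82 for Bag3 and -0.36 for Dnajb1, and its mean deviation from the group means over the members was 0.44. The marker mean was over 1 on 7 arrays, and on the other 6 of them Hspb1 was 0.81 to 1.20. After removal of group means, fibroblast markers followed Hspb1 most among the marker lists over all arrays (r = 0.51). Skeletal muscle markers were next (0.35), then erythroid ones (0.32). Hspb1 is abundant in muscle, and the part of muscle tissue in this value was not tested.

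The reference channel, the denominator of the ratios by which the members were chosen, gave a background for all groups, since the same reference RNA was on every array. Of the 120 member and group pairs, 0 were called in that channel by limma (2 at an unadjusted p below 0.05), with differences from -0.28 to 0.23, and of all genes 0% to 0.017% were called in a contrast (0.0113% with 162 µg of NRCWE-002 on day 1). In the lung channel the same pairs reached 2.18, for Hspa1a with 18 µg of NRCWE-001 on day 28, where its reference channel differed by 0.076 ± 0.080. Hsph1 differed there by 1.37 in the lung channel and by -0.062 in the reference channel. For Hspa1b the reference channel differed by 0.23 ± 0.093 beside 1.22 in the lung channel. All these values followed loess and Aquantile normalisation. With the reference channel centred on each array's median and no loess, its differences ran from -0.64 to 0.26. Their median size was 0.14 against 0.061, and 0 of the 120 pairs were called, beside 0.00047% of all gene and group pairs. With slide as a fixed block the range was -0.12 to 0.20.

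**Figure D3:**
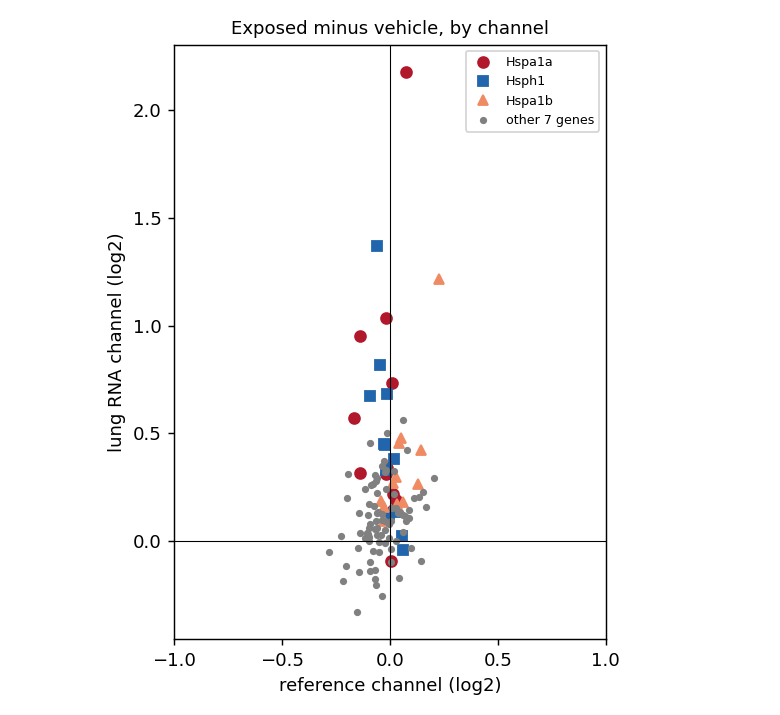
Difference from vehicle in the reference RNA channel (horizontal axis, log2) against that in the lung RNA channel (vertical axis, log2) for each of the 10 genes and 12 exposed groups. After loess and Aquantile normalisation the reference differences stay between -0.28 and 0.23, and the lung channel reaches 2.18 for Hspa1a.

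Up to 4 arrays shared a slide, and slides held unequal sets of groups, so slide was tested. With the group means kept in the model, a limma F-test of slide (Benjamini-Hochberg) called 9 of the 10 members and 75.2% of all genes, so the members did not stand out. Hsph1 was not called (adjusted p = 0.134). Slide took up a median of 58.9% of the members' variation within groups and of 62.3% over all genes, with 30.9% of the degrees of freedom. The share was 86.9% for Hspa8 (adjusted p = 8.73e-12), 71.0% for Hspd1, 50.6% for Hspa1a and 39.9% for Hsph1.

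Of the members, Hspa8 varied most between slides. On 1 slide (slide 3), which held replicate 1 of each NRCWE-001 dose of day 28 and vehicle replicate 2, Hspa8 was -0.081, -0.44, -0.49 and -0.81, where the other lungs of those groups were between -2.06 and -0.92. On another (slide 16), which held replicate 2 of each NRCWE-002 dose of day 28, it was -0.16, -0.49 and 0.11. On slide 3 the ratio lay 0.89 above the group means on average while the reference channel lay -0.69 from them and the lung channel 0.23. On slide 16 the ratio lay 1.04 above, with the reference channel at -1.11 and the lung channel at 0.035. Across all 69 arrays the reference channel of Hspa8 varied as much as its lung channel (SD 0.38 and 0.35). For Hspa1a these were 0.12 and 0.62, and for Hsph1 0.088 and 0.52.

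**Figure D4:**
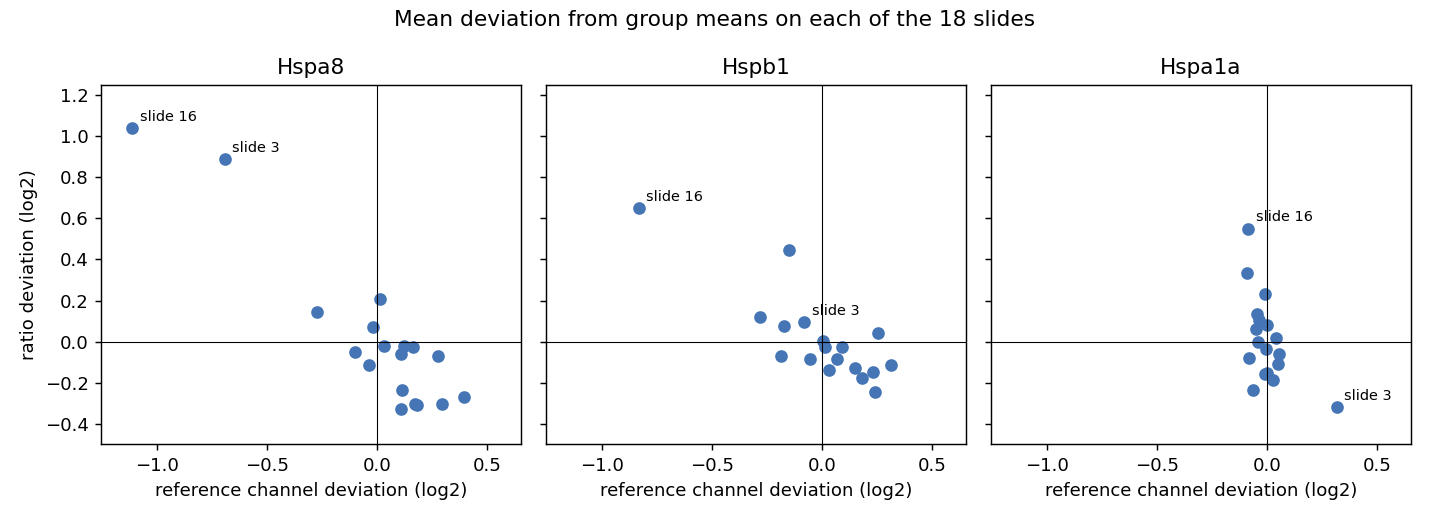
Mean deviation from the group means on each of the 18 slides in the reference channel (horizontal axes, log2) and in the ratio (vertical axes, log2) for Hspa8, Hspb1 and Hspa1a, with 1 point per slide. Hspa8 on slides 3 and 16 is high in the ratio (0.89 and 1.04) and low in the reference channel (-0.69 and -1.11), and Hspa1a has a narrow range in the reference channel.

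Slide 3 also held the vehicle lung with the lowest Hspa1a ratio, 0.050, where the Hspa1a reference channel was 0.32 above the group means. Without this mouse the 18 µg NRCWE-001 difference of Hspa1a was 2.01 and the 162 µg one 0.59. With slide as a fixed block the 18 µg differences were 2.14 ± 0.20 for Hspa1a, 1.34 ± 0.20 for Hsph1, 0.98 ± 0.10 for Hspa1b and 0.53 ± 0.13 for Dnajb1, and these 4 members were called beside 0.511% of all genes. The F-test of dose with this block called 5 members and 2.17% of all genes for NRCWE-001 on day 28. The rule had used these values, so nothing is read from the counts. The block left the Hspa1a difference at 0.95 ± 0.20 for 162 µg of NRCWE-002.

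Exposed and vehicle lungs that shared a slide could be compared directly. Of 11 such pairs on day 28, all 11 had the exposed lung higher for Hspa1a, Hspa1b, Hsph1 and Hspa8, with medians of 0.68, 0.31, 0.59 and 0.36. The 11 pairs used 4 vehicle lungs and are not independent. The share of all genes that were higher in every pair was not computed for either day, so nothing is read from these counts. The 2 pairs with 18 µg of NRCWE-001 gave Hspa1a differences of 3.06 and 1.76 and Hsph1 differences of 1.93 and 1.11. The 6 pairs with NRCWE-002 gave Hspa1a differences between 0.20 and 0.68. On day 1 no member was higher in all 15 pairs. Hspe1 was higher in 14, Hspa1b and Hspb1 in 13, and Hspa8, Hsph1 and Hspd1 in 12, with medians of 0.18, 0.14, 0.077, 0.29, 0.12 and 0.21. Hspa1a was higher in 10 (median 0.10), Dnajb1 and Bag3 in 9 and Hsp90aa1 in 4 (median -0.14).

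**Figure D5:**
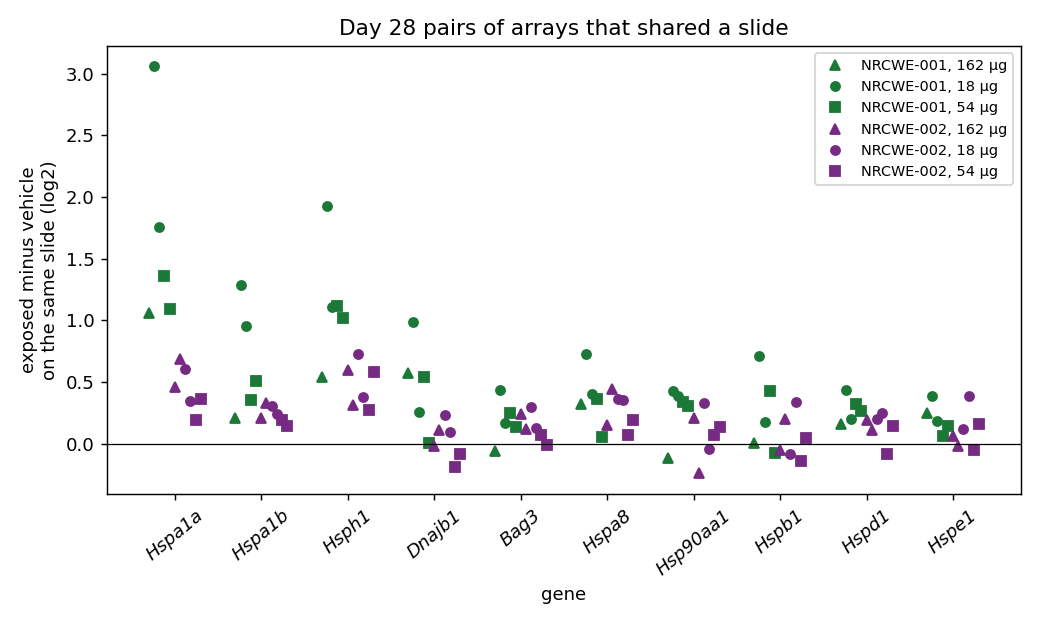
Difference between an exposed lung and the vehicle lung on the same slide (vertical axis, log2) for the 10 genes on day 28, with 1 point per pair, coloured by particle and shaped by dose. All 11 pairs are above 0 for Hspa1a, Hspa1b, Hsph1 and Hspa8, a count without a share of all genes beside it. The highest Hspa1a points, 3.06 and 1.76, are from 18 µg of NRCWE-001.

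Other chaperone genes were read from a list of 61, of which 60 were measured. The F-test of dose called 1 of them, for NRCWE-001 on day 28 (0.686% of all genes), and 0 in the other 3 sets of groups, where 1 and 2 on day 1 (NRCWE-001 and NRCWE-002) and 0 on day 28 had an unadjusted p below 0.05. The share of all genes at the unadjusted cut is not given. The one called was Chordc1, a co-chaperone of HSP90, which rose by 0.47 ± 0.091 with 18 µg (limma F-test, adjusted p = 0.00372), with all 5 lungs above vehicle. In a fit of the day 28 arrays alone its adjusted p was 0.0602. With 18 µg of NRCWE-001 on day 28, 41 of the 60 were positive, with a median of 0.073, where 50.3% of all genes were positive with a median of 0.00080. By role, the 13 measured HSP90 partners and paralogues had a median of 0.21, the 7 small heat shock proteins 0.16, the 10 J proteins 0.076 and the 8 subunits of the cytosolic chaperonin CCT -0.0080. Dnaja1, another J protein for HSP70, had a difference of 0.54 ± 0.18 that was not called (adjusted p = 0.362) although all 5 lungs were above vehicle; it was chosen after its values were seen. Hsf1, the factor itself, differed by -0.022 ± 0.11.

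Chaperones and stress genes of the endoplasmic reticulum were read as a first comparison. Of the 14 measured of 15, the F-test called 6 on day 1 for each particle, beside 0.879% and 0.771% of all genes for NRCWE-001 and NRCWE-002, and all 6 were higher at 162 µg: Hspa5, Dnajb11, Sdf2l1, Creld2, Manf and Pdia6. With 162 µg of NRCWE-001, Sdf2l1 rose by 1.11 ± 0.24 (adjusted p = 0.0180 by limma), Manf, a secreted stress factor, by 0.77 ± 0.18 and Hspa5, the HSP70 of this compartment, by 0.72 ± 0.14. With 162 µg of NRCWE-002 they rose by 1.27, 0.83 and 0.64. On day 28 Herpud1, which takes part in the removal of misfolded proteins, was the only one called, for NRCWE-001, with 0.72 ± 0.13 at 18 µg. At 162 µg of NRCWE-001 the mean of Herpud1 was below that of vehicle. The members had 0 calls on day 1 and 3 on day 28 in the fit without blocks, from values the rule had used, so nothing is read from these counts. With slide or scan day as a block, members were called on day 1 too. The difference between the lists was not tested. The NRCWE-001 calls on day 1 were lost for Sdf2l1 without 162 µg replicate 1, 3 or 4 (adjusted p from 0.0629 to 0.134), for Manf without these or vehicle replicate 4 (0.0540 to 0.316) and for Hspa5 without replicate 3 or 4 (0.0556 and 0.0561).

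Immediate early genes, transcribed within minutes of many stimuli and of tissue handling, were read as a second comparison. Of 18, the F-test called 2, for NRCWE-001 on day 28, where it called 0.686% of all genes: the transcription factors Nr4a1 and Atf3, which rose by 2.07 ± 0.44 and 1.06 ± 0.21 with 162 µg, the dose with the smallest Hspa1a difference for this particle. The calls were lost without 162 µg replicate 4 or 5 for Nr4a1 and without replicate 5 or in the day 28 fit for Atf3. At an unadjusted p below 0.05 the F-test gave more of the 18. For NRCWE-001 and NRCWE-002 there were 6 and 8 on day 1 and 7 and 5 on day 28. Of the 10 members there were 0 and 1 on day 1 and 6 and 3 on day 28. The share of all genes at this cut is not given here, so nothing is read from these counts.

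The measured markers of alveolar type 2 cells, club cells and endothelium were detected on all arrays. Their mean log2 ratios over reference were 3.89 to 4.65, 5.81 to 7.53 and 4.24 to 5.31. The fibroblast list ran from -1.27 to -0.31 and the T and B cell list from -0.22 to 0.66. These ratios are relative to the reference RNA and do not give the amount of a cell type. Beside the Hspa1a difference with 18 µg of NRCWE-001 on day 28, the 13 marker lists differed from vehicle by -0.33 (T and B cells) to 1.09 (heart muscle). The heart muscle means ran from 0.33 to 3.29 in the exposed and from 0.42 to 2.50 in the vehicle lungs and so overlapped, and the skeletal muscle means of -0.92 to -0.075 overlapped those of vehicle, -1.15 to -0.85. The part of these in the chaperone differences was not tested.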

How the data were processed

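The 69 two-colour arrays (4 on a slide) carried lung RNA in Cy5 and reference RNA in Cy3, without dye swaps, and were scanned and read with Agilent Feature Extraction 11.0.1.1 per the file headers. The authors deposited LOWESS-normalised log2 ratios of lung over reference, used here as the main values, with the scanner files, whose intensity columns gave the deposited signals of both channels. The deposited ratios correlated with ratios recomputed from the scans (normexp background correction with an offset of 50, then loess) at r = 0.987 to 0.995, with positive slopes on the raw log2 ratio, so scale and direction are settled. Array medians were -0.059 to -0.0026. The log10 ratios in the deposited scanner output were an alternative.

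Of 41174 probes, 27479 matched 1 RefSeq symbol (GRCm38.p6 table) by transcript identifier, and probes well above background in the lung channel on at least 4 arrays were kept. In all, 60.8% to 87.6% of spots per array were well above background there, 49.1% to 85.3% in the reference channel, and 0 were saturated. A gene was the median of its probes. Arrays give no counts, so their number limits the precision. limma 3.58.1 (R 4.3.3) fitted 14 group means to 17628 genes on all 69 arrays, with moderated F-tests of dose and contrasts with vehicle of the same day, Benjamini-Hochberg adjusted per contrast (threshold 0.05). The fit was tested on simulated data. The study had also computed an F statistic for dose per gene, which it used to compare gene sets; the moderated F and the calls per gene are of the present work, and no covariate was used. Channel values were the normexp-loess signals made comparable between arrays with Aquantile.

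Slide and scan day were read from the scanner files (18 slides, 12 scan days) and slides were numbered arbitrarily. Replicate numbers follow accession order and pair nothing. The members and lists were chosen with earlier results of these data known. Named genes were all members, up to 3 called genes per comparison list, particle and day with the largest difference, and the genes most correlated with the members, of which 1 is not reported here. The alternatives were other normalisations, centring, filters and probe summaries, slide (fixed or random) or scan day as a block, the arrays of a single day and leaving out each array. No set test was made. Protein sequences were not used here.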

Additional observations from a re-analysis of the deposited data

Results flagged for a closer look

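In 18 of 140 combinations of a member and a group (12.9%), the highest or lowest lung was set apart from the others of its group by Dixon's criterion at 95%, which chance alone meets in about 1 in 20 groups. Of these, 11 were on slides 3 and 16.

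For Hspa8 the lung set apart was -0.49 with 162 µg of NRCWE-001 on day 28 (others -2.06 to -1.76), and -0.16, -0.49 and 0.11 with 18, 54 and 162 µg of NRCWE-002 on day 28 (others at most -1.18, -1.62 and -1.35). For Hspb1 the lungs were 1.86 and 1.79 with 54 and 162 µg of NRCWE-002 on day 28 (others at most 1.14 and 1.06). For Dnajb1 they were -0.54 and -0.69 with 18 and 54 µg of NRCWE-002 on day 28. For Hsp90aa1 they were -0.87 in vehicle replicate 2 of day 28 and -0.87 with 54 µg of NRCWE-002 on day 28, both below the others. Hspd1 was -1.42 in replicate 1 with 162 µg of NRCWE-001 on day 28 (others -2.25 to -2.10). All of these were the arrays of slides 3 and 16.

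On other slides, Dnajb1 was -0.62 in vehicle replicate 3 of day 28 (others -1.12 to -1.05). On day 1, Hspb1 was 3.09 with 18 µg of NRCWE-001 (others 0.75 to 1.13), 1.14 with 18 µg of NRCWE-002 (others 0.92 to 0.98) and 0.73 with 54 µg of NRCWE-002 (others 0.92 to 0.95). Hspd1 was -1.57 and Hsph1 -0.39 with 162 µg of NRCWE-001 on day 1, in different mice, and Hspa1b was 0.074 with 162 µg of NRCWE-002 on day 1, each above the others of its group.

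Hspd1 differed in direction between the days with 54 µg of NRCWE-002: all 5 lungs were above the vehicle mean on day 1 (0.24) and all 5 below it on day 28 (-0.13), a contrast that was not tested. The vehicle group of day 28 included the high Hspd1 value of slide 3, and with slide as a block the day 28 difference was 0.091.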

How the results depend on the processing

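By replicate number, no paired analysis was possible because the numbers followed accession order and tie no mice together across groups. The pairs of exposed and vehicle lungs on a shared slide are another comparison, and they were described above. No called value changed direction under any alternative. The 10 members' median difference in each contrast moved by less than the replicate SD under every setting run, and quantile normalisation, array medians set to 0 and no filter on dim probes changed no count of members or listed genes by more than 1.5 times. For Hspa1b with 18 µg of NRCWE-001 on day 28 the difference was 0.99 with renormalised signals, 1.85 with the scanner software's ratios and 1.71 with probes detected on all 69 arrays, against 1.08.

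With slide as a fixed block, members called were 1 (162 µg NRCWE-001, day 1, where 4.11% of all genes were), 0 (162 µg NRCWE-002, day 28, 0.00567%) and 5 (F-test, NRCWE-001, day 28, 2.17%), and pathway genes called by the F-test were 4 and 3 on day 1 (7.63% and 2.4% for NRCWE-001 and NRCWE-002) and 7 for NRCWE-001 on day 28. With slide as a random block the members called on day 28 were 5 at 18 µg of NRCWE-001 (0.817%), 3 at 162 µg of NRCWE-002 (0.0794%), and 5 and 1 by the F-tests for NRCWE-001 and NRCWE-002 (3.37% and 0.0567%), and the pathway genes 1 (NRCWE-001, day 1, 6.51%) and 4 (NRCWE-001, day 28). With scan day as a block, the members called were 2 and 1 at 162 µg (4.07% and 3.99%) and 1 by the F-test for NRCWE-001 (6.64%) on day 1, and 5 at 18 µg (0.55%), 0 at 54 µg (0%) and 6 by the F-test (2.17%) for NRCWE-001 on day 28, and the pathway genes were 6 and 4 on day 1 (6.64% and 4.01%) and 6 on day 28. In fits of a single day, 0 members were called at 54 µg of NRCWE-001 and at 162 µg of NRCWE-002 on day 28 (0% each), and the pathway genes were 1 and 2 on day 1 (2.67% and 2.99%) and 0 on day 28 (0.102%). Between the particles on day 28, Hspa1a and Dnajb1 were called with slide as a random block (0.216%) and with scan day (0.0737%), and Hspa1a, Hspa1b and Dnajb1 in the fit of that day (0.471%). With the mean over probes 2 pathway genes were called on day 28, and with renormalised signals 0 members at 54 µg of NRCWE-001. The rule had used the members' values, so nothing is read from their counts. The causes were not tested.

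Leaving out each array in turn, members called on day 28 ranged from 0 to 1 at 54 µg and at 162 µg of NRCWE-001, from 0 to 3 at 162 µg of NRCWE-002 and from 0 to 1 by its F-test. The shares of all genes called in these fits are not given, so nothing is read from the counts. With 18 µg of NRCWE-001 on day 28 the Hspa1a difference ranged from 2.01 to 2.39. Probes near background limit the second Hspa1b probe, and 4 vehicle mice limit every day 28 comparison.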

Other observations

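The members varied together in part. Over the 45 pairs of members, the correlation across the 69 arrays had a median of 0.43 and ran from -0.28 to 0.90. After removal of group means the median was 0.24, highest for Hspa1b with Hspa8 (0.76), and after removal of slide means too it was 0.37, highest for Hspa1a with Hspa1b (0.84). The arrays share slides and a reference, and these are descriptions.

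Among the genes most like the mean of the 10 members over the 69 arrays, after removal of group means, were Ldha, a lactate dehydrogenase subunit, (r = 0.72, and 0.70 with slide means removed), Rhov (0.71 and 0.65), Wnt4 (0.66 and 0.63) and Ppfia3 (0.65 and 0.58). Without the lung with the highest skeletal muscle mean these were 0.66, 0.63, 0.57 and 0.54, and without the 2 arrays farthest from the median they were 0.62, 0.59, 0.51 and 0.49. Both of these were chosen after seeing the data. The genes most like Hspa1a were Hspa1b (0.63), Mrpl43 (0.62), Scrib (0.62), Trim47 (0.61) and Camsap3 (0.61), and with slide means removed these were 0.84, 0.58, 0.44, 0.50 and 0.51.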
